A study of Rattus norvegicus with 20 samples.

Results

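Mesenteric arteries of the stroke-prone spontaneously hypertensive rat (SHRSP/Izm, not operated on) were compared with those of Wistar-Kyoto rats (WKY/Izm) that had the 2-kidney, 1-clip operation (2K1C). Each group held 4 arrays, chosen by the strain and operation in the sample titles, so 8 of the 20 arrays of the series enter the comparison. The other 12 arrays were 4 of SHR/Izm without operation, 4 of WKY/Izm with the 1-kidney, 1-clip operation (1K1C) and 4 of WKY/Izm without operation, and they are given here only to place the differences. The labels give an age of 6 weeks for every rat and a protocol of 3 weeks for the WKY groups, and no sham-operated group is among the samples used here. The titles number the arrays of a group as biological replicates. Nothing in the labels says whether RNA was pooled. The 2 groups differ at once in strain, in operation, in the labelled protocol period, which is not given for SHRSP, and in slide. The 2K1C arrays lay on slide 1 and the SHRSP arrays on slide 3. These differences cannot be told apart from this comparison alone. Blood pressure was not analysed here.

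The mesenteric artery feeds the intestine through a tree of muscular resistance vessels, with an endothelial lining, a layer of contractile smooth muscle and an adventitia of fibroblasts, nerves and fat. SHRSP rats inherit hypertension and are prone to stroke. In 2K1C rats a clip narrows the artery of one kidney, and the underperfused kidney drives a rise in angiotensin II, which acts on arterial smooth muscle through its type 1 receptors. The product of Agtrap binds the type 1 angiotensin receptor and promotes its internalisation. The product of Ephx2, soluble epoxide hydrolase, breaks down vasodilator epoxides of arachidonic acid. Markers of contractile smooth muscle were bright in both groups, with Acta2, the smooth muscle actin, at 4.01, 3.96, 4.49 and 3.41 on the SHRSP arrays, against 5.36, 5.24, 4.04 and 3.41 on the 2K1C arrays. A level throughout is the log2 of a probe's signal relative to the 75th percentile of its array, so a level of 0 is as bright as that percentile. The level of 1 gene is not set against that of another. From 67.9% to 71.7% of spots were well above background on the SHRSP arrays, against 70.6% to 71.6% on the 2K1C arrays, and negative control spots read 35.5 to 37.4 in SHRSP, against 26.8 to 27.6 in 2K1C, as net signal. Correlations of levels within a group ran from 0.961 to 0.992 for SHRSP and from 0.934 to 0.984 for 2K1C.

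Each gene was read by a probe of 60 bases, and the probes of the genes on which the results below turn are shown here as the array's design gives them, 5′ to 3′, with positions on rat build rn4. The Agtrap probe lies at chr5:165154364-165154423 on the minus strand, and the Ephx2 probe spans chr15:45535737-45538220 on the minus strand, which is longer than the probe itself. The Endog probe lies at chr3:9187223-9187282 on the plus strand. The probe of the alpha-globin copy Hba-a3 lies at chr10:15559461-15559520 and a second probe of its neighbour Hba-a1 at chr10:15585140-15585199, both on the minus strand; capitals mark their longest shared run, of 12 bases. Both Zfp14 probes lie on the minus strand, at chr1:85064034-85064093 and chr1:85065531-85065590, and gave opposite differences. Sequence differences between the strains under a probe were not analysed here.
Agtrap: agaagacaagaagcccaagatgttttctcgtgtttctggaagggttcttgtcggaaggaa
Ephx2: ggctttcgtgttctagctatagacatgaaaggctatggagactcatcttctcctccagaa
Endog: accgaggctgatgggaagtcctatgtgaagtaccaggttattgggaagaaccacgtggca
Hba-a3: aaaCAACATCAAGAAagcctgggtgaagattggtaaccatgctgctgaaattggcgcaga
Hba-a1 second probe: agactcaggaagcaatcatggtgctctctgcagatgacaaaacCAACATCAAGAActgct
Zfp14: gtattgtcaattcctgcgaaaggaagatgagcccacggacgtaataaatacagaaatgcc
Zfp14 second probe: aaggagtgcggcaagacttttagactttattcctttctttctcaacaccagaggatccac

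Of 16401 genes tested, 189 differed between SHRSP and 2K1C arteries at a limma adjusted p under 0.05, which is 1.15% of the genes. Of these, 99 (0.604% of the genes) were higher and 90 (0.549%) lower in SHRSP. Their differences were large, in that the median size was 1.30 on the log2 scale, 131 genes passed 2-fold and 46 passed 4-fold. The 4 SHRSP and 4 2K1C arrays did not overlap for 185 of the 189, whereas they did not overlap for 7.27% of all genes tested. The genes were called on these same arrays, so the lack of overlap follows largely from the call and is no further support. At an unadjusted p under 0.05 there were 1582 genes. The median difference of all genes was -0.010, and 48.5% of them were above 0. By name, 126 of the 189 had a gene symbol and 63 only a locus number, transcript or sequence accession. A fit that weights arrays by their quality called 668 genes, and one without SHRSP array 1 or 2 called 124 or 123.

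**Figure D1:**
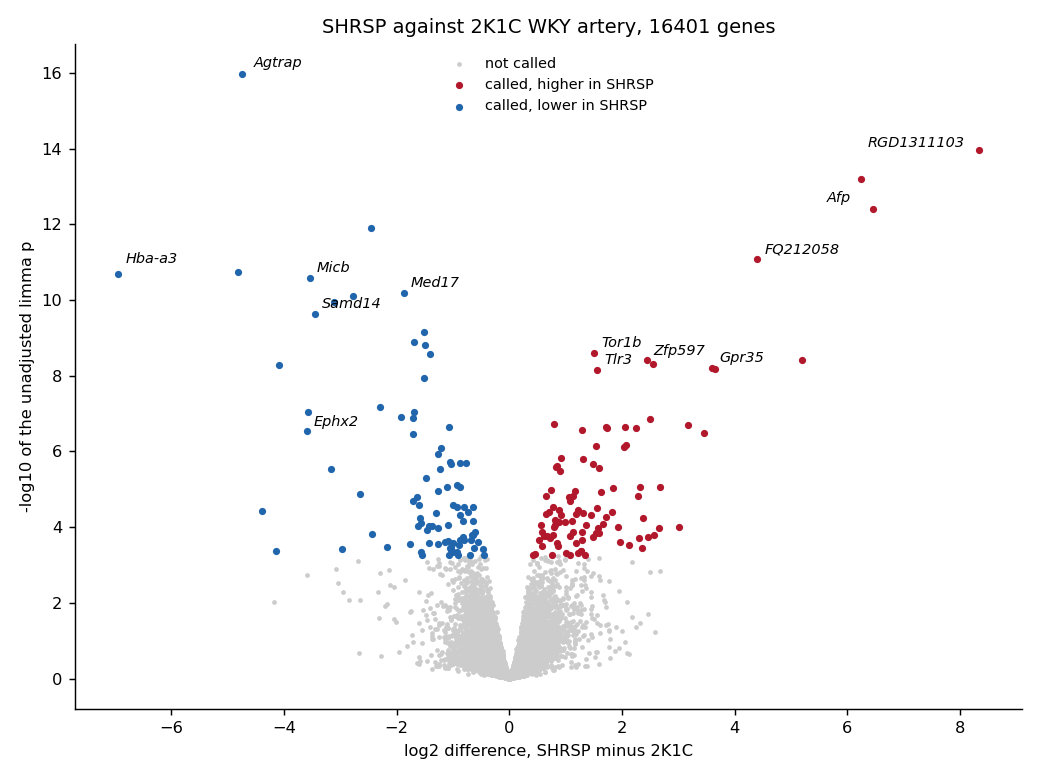
Log2 difference between SHRSP and 2K1C arteries (x axis, 4 arrays each) against the -log10 of the unadjusted limma p (y axis) for 16401 genes. The 99 genes called higher in SHRSP lie on the right and the 90 called lower on the left, with Agtrap the highest point.

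Some arrays carried markers of neighbouring tissue. Mean levels of the 14 neuronal genes were -2.43, -2.16, -2.38 and -2.45 in SHRSP, against 0.88, -2.25, -2.37 and -2.83 in 2K1C, with 2K1C array 1 alone high. The 8 lymphocyte genes were highest on array 4 of each group, at 0.81 in SHRSP and 1.92 in 2K1C, and at -3.25 or below on the other SHRSP arrays and -2.18 or below on the other 2K1C arrays. Digestive enzyme genes of the pancreas ran from -5.54 to 1.49 in SHRSP, against -4.36 to -1.48 in 2K1C. White adipocyte genes ran from 1.87 to 2.72 in SHRSP, against 1.30 to 2.34 in 2K1C. Differences were above 0 for 1 of 14 neuronal, 4 of 8 lymphocyte, 10 of 10 pancreas and 11 of 11 white adipocyte genes. No gene of these 4 lists passed the test, and what these tissues contribute to the results below was not tested. In whole arteries, fewer cells of a type and less RNA per cell cannot be told apart.

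**Figure D2:**
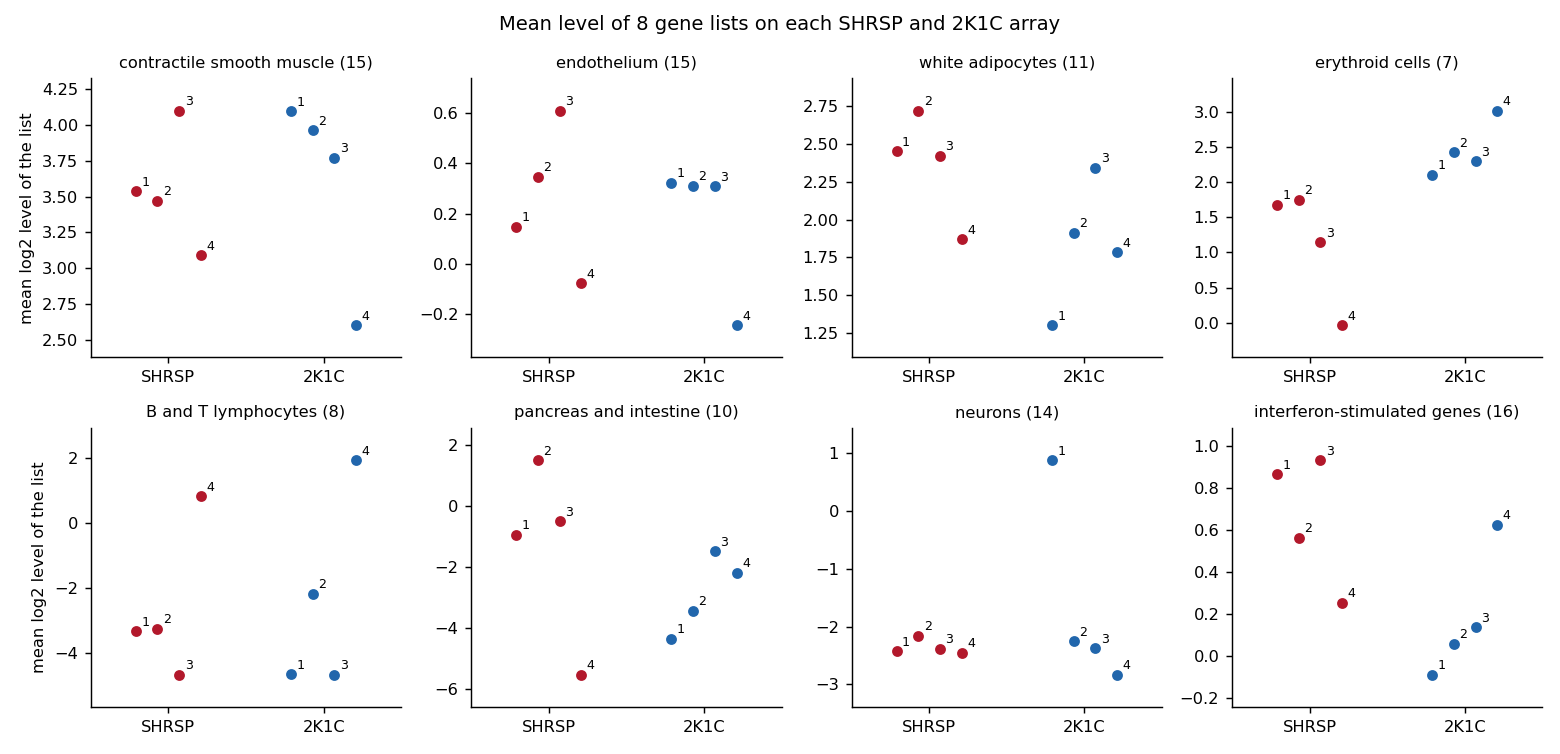
Mean log2 level of 8 gene lists on each array, SHRSP in red left of 2K1C in blue, with the array number beside each point and the number of genes measured in brackets. Neuronal genes stand high on 2K1C array 1, lymphocyte genes on array 4 of both groups, and pancreas genes low on SHRSP array 4.

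The 189 genes fell into patterns when the other 12 arrays were set beside them. For 42 called genes, 18 higher and 24 lower, the SHRSP arrays stood apart from all 16 other arrays, SHR included; among all genes tested this held for 71, or 0.433%. For 78 called genes, 40 higher and 38 lower, the SHRSP and SHR arrays together stood apart from all 12 WKY arrays, against 0.707% of all genes. The SHR and SHRSP arrays shared slide 3 and held all of it, so in that second pattern slide cannot be told apart from strain. In the first pattern SHRSP and SHR differ within a single slide, where SHR held row 1 and SHRSP row 2. Between SHRSP and SHR, row and strain cannot be told apart. For 16, the 2K1C arrays stood apart from the 16 others, against 0.305% of all genes. These counts share 4 genes, each of which met 2 of the patterns, and 57 called genes met none. The percentages are descriptions of overlap, with no test. The adjusted p-values printed for other comparisons share the SHRSP or 2K1C arrays with this one. By the same threshold 0.372% of genes were called for SHRSP against SHR, 2.40% for SHRSP against untreated WKY and 0.0122% for 2K1C against untreated WKY.

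Agtrap was the gene with the smallest p. Its levels were -4.36, -4.64, -5.11 and -4.62 in SHRSP, against 0.14, 0.072, -0.029 and 0.044 in 2K1C, and 0.10, 0.091 and 0.12 on average in SHR, 1K1C and untreated WKY. All 4 SHRSP arrays lay more than 4 log2 units below every other array, and 3 of them were still well above background. The difference from 2K1C was -4.74 ± 0.15 (SE), a 26.7-fold lower signal (adjusted p = 1.78e-12), and the difference from SHR, -4.78 ± 0.15, had an adjusted p of 1.5e-12. Between 2K1C and untreated WKY the difference was -0.068 ± 0.15 (adjusted p = 0.812).

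Ephx2 levels were -5.73, -5.43, -5.43 and -5.84 in SHRSP, against -2.95, -1.57, -1.13 and -2.40 in 2K1C. On none of the SHRSP arrays was the probe well above background, and on all 16 others it was. Here "at least" is the brighter group's mean over a bound for the dimmer group, namely the higher of its own signal and the faintest signal well above background on each array. On that basis Ephx2 was at least 12.1-fold lower in SHRSP than in 2K1C (fitted difference -3.60 ± 0.45, adjusted p = 0.000116). The 2K1C arrays averaged -2.01 ± 0.82 (SD, n = 4) and untreated WKY -0.71 ± 0.63, a difference of -1.30 ± 0.45 that did not pass the test (adjusted p = 0.139). Set against the arteries of untreated WKY, the bound for SHRSP was at least 29.9-fold lower (adjusted p = 3.1e-06), and set against SHR at least 20.2-fold lower (adjusted p = 2.65e-05).

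Among genes with a symbol, the lowest fitted difference was that of Hba-a3, an alpha-globin gene copy whose product belongs to haemoglobin. Its levels were -6.50, -7.71, -7.53 and -8.01 in SHRSP, not well above background on any array, against -1.08, -0.50, -0.61 and 0.21 in 2K1C, at least 40.4-fold lower (fitted difference -6.94 ± 0.47, adjusted p = 4.29e-08). None of the 6 other erythroid genes measured passed the test, nor did any have an unadjusted p under 0.05. Hba-a1, its neighbour, was at 7.67, 7.84, 7.57 and 6.40 in SHRSP, against 7.64, 7.90, 7.52 and 8.02 in 2K1C, a difference of -0.40 ± 0.28 (adjusted p = 0.678), and its second probe, shown above, differed by -0.017 ± 0.49 (adjusted p = 0.996). The beta-globin gene Hbb differed by -0.33 ± 0.29 and Alas2, the enzyme that starts haem synthesis in red cells, by -0.35 ± 0.53, with adjusted p-values of 0.772 and 0.881. The 6 erythroid genes other than Hba-a3 averaged 3.05, 3.33, 2.59 and 1.30 on the SHRSP arrays, against 2.64, 2.91, 2.78 and 3.49 on the 2K1C arrays, and these ranges overlap. Alpha-globin copies are close in sequence, so the signal of a probe may include RNA of another copy.

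Micb, an MHC class I-like gene, was at -6.12, -6.84, -6.05 and -7.36 in SHRSP, against -2.99, -2.68, -2.91 and -3.64 in 2K1C, at least 6.85-fold lower (adjusted p = 4.69e-08). Samd14, which encodes a sterile alpha motif protein, was at -7.70, -7.91, -7.19 and -7.41 in SHRSP, against -3.75, -4.30, -3.85 and -4.49 in 2K1C, at least 3.32-fold lower (adjusted p = 2.93e-07). Neither was well above background on any SHRSP array, and both were so on every other array of the series. Sgca encodes alpha-sarcoglycan, a membrane protein of the dystrophin complex. Its levels, -1.91, -2.04, -2.17 and -2.67 in SHRSP, against -0.46, -0.23, -0.14 and -1.13 in 2K1C, gave a difference of -1.71 ± 0.22 (adjusted p = 0.000128). It was the 1 called gene among 10 of the dystrophin complex, whose median difference was 0.091, against 1.15% of all genes called. Gatm, which encodes the first enzyme of creatine synthesis, averaged -4.12 ± 0.24 in SHRSP and -2.40 ± 0.33 in 2K1C (SD, n = 4 each), a difference of -1.71 ± 0.30 (adjusted p = 0.00415). SHR lay close to SHRSP for this gene, at -3.79, and the difference between the strains, -0.33 ± 0.30, did not pass the test (adjusted p = 1).

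Among genes with a symbol that were higher in SHRSP than on all 16 other arrays, Zfp597, a zinc finger gene, had the largest fitted difference. Its levels were -2.21, -2.39, -2.48 and -2.19 in SHRSP, against -5.28, -4.77, -4.34 and -4.64 in 2K1C, a difference of 2.44 ± 0.23 or 5.42-fold (adjusted p = 3.23e-06). Rgs11, a regulator of G protein signalling, was at -2.13, -2.20, -1.71 and -2.40 in SHRSP, against -3.99, -3.99, -4.20 and -5.51 in 2K1C, with 2K1C array 4 far below the other 3. The difference was 2.32 ± 0.37 (adjusted p = 0.00209). Rgs11 was the 1 called gene among 12 RGS genes, whose median was -0.17, against 1.15% of all genes called. Rgs5 and Rgs4, the RGS genes best known from pericytes and smooth muscle, differed by -0.42 and -0.39, with adjusted p-values of 0.832 and 0.792.

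Hes1, a transcriptional repressor and target of Notch signalling, was at -1.32, -1.45, -1.62 and -1.94 in SHRSP, against -2.87, -3.43, -3.08 and -3.91 in 2K1C, and the groups did not overlap. The difference was 1.74 ± 0.21, or 3.34-fold (adjusted p = 0.000102). Other Notch genes did not pass the test: the 12 measured had a median of -0.13, with Hey1, another target, at -0.39 and the ligand gene Jag1 at 0.26. Against SHR, Hes1 in SHRSP was higher by 1.32 ± 0.21 (adjusted p = 0.00468). Abca9, a transporter gene of the ABC family, was well above background on all 4 SHRSP arrays and on no other array of the series, at least 2.33-fold higher in SHRSP than in 2K1C. It passed the filter on dim probes only through SHRSP, so its call (adjusted p = 0.00219) is a description and no independent support. Some genes of this pattern were named after their values were seen. Prps2, an enzyme that makes the phosphoribosyl donor of nucleotide synthesis, was higher by 1.49 ± 0.22 (adjusted p = 0.000659). The RNA methyltransferase gene Mettl2 was higher by 1.53 ± 0.20 (adjusted p = 0.000264). Hmox2, the constitutive haem oxygenase, was lower by a smaller and very even step, with levels of 0.80, 0.72, 0.86 and 0.74 in SHRSP, against 1.42, 1.56, 1.36 and 1.38 in 2K1C (difference -0.65 ± 0.12, adjusted p = 0.00561).

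**Figure D3:**
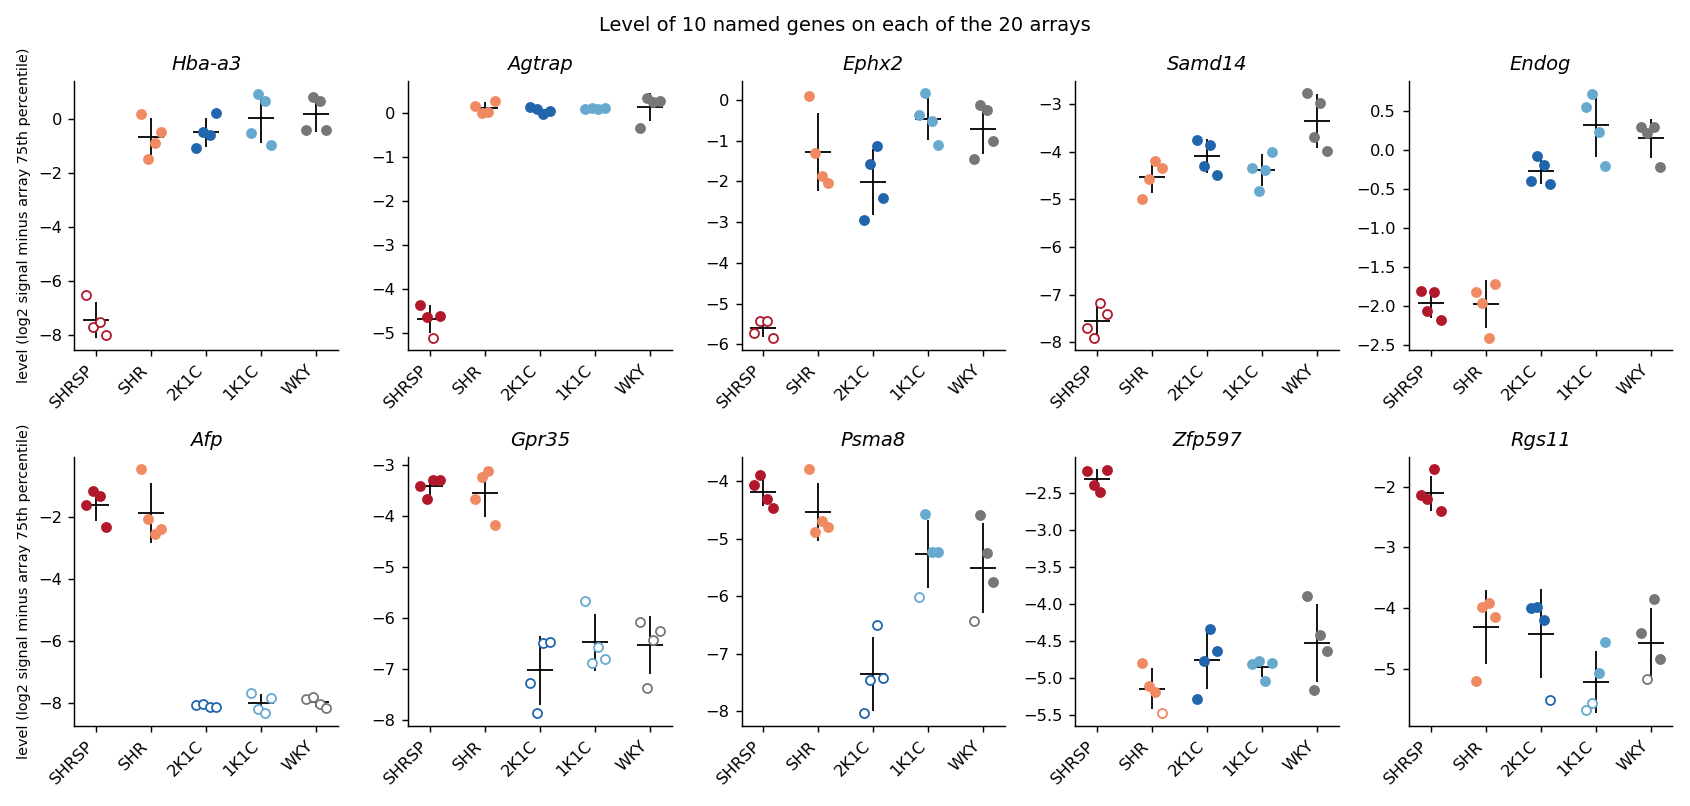
Level of 10 genes on each of the 20 arrays, with the mean and SD of each group (n = 4) in black. Open circles are arrays where the probe was not well above background. Hba-a3, Agtrap, Ephx2, Samd14, Zfp597 and Rgs11 separate SHRSP from all other arrays, Endog, Afp and Gpr35 separate SHRSP and SHR from the WKY groups, and Psma8 is not well above background on any 2K1C array.

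The remaining renin-angiotensin genes did not pass the test. Of 17 measured, Agtrap was the 1 called, against 1.15% of all genes. Differences were above 0 for 8, and the median was -0.026. Agt, the gene of angiotensinogen, differed by 0.40 ± 0.43 (95% interval -0.51 to 1.31), and Ace, the converting enzyme of the endothelium, by -0.42 ± 0.30 (interval -1.06 to 0.21). The receptor gene Agtr1a differed by 0.11 ± 0.24 (interval -0.40 to 0.61). Agtr1b differed by -0.19 ± 0.55 with an interval of -1.34 to 0.97. On this probe 2K1C array 4 lay at -4.57 and the other 3 at -2.57 or above. Agtr2 was not among the genes tested.

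Many of the largest fitted differences lay between SHRSP and SHR on one side and all WKY arrays on the other. Afp, which encodes alpha-fetoprotein of fetal plasma, was at -1.64, -1.17, -1.35 and -2.33 in SHRSP, against -8.06, -8.04, -8.12 and -8.11 in 2K1C, where no array was well above background. Its signal in SHRSP was at least 19.8-fold higher (fitted difference 6.46 ± 0.34, adjusted p = 1.66e-09), and SHR averaged -1.88. Afp, like the next 2 genes, was well above background on no WKY array and passed the filter on dim probes only through the hypertensive strains, in which it was bright. Gpr35, a G protein-coupled receptor gene, was at -3.43, -3.67, -3.30 and -3.30 in SHRSP, against -7.27, -7.87, -6.49 and -6.48 in 2K1C, at least 5.69-fold higher (adjusted p = 4.39e-06). Pip, which encodes the secreted prolactin-induced protein, was at least 3.00-fold higher (adjusted p = 0.000128). Itm2c, a membrane protein of the BRICHOS family, was higher by 1.72 ± 0.21 (adjusted p = 0.000102). Nxnl2, a thioredoxin-like gene, and Agmo, an enzyme that cleaves alkylglycerols, were higher by 2.12 ± 0.47 and 1.97 ± 0.43, with adjusted p-values of 0.0306 and 0.027, and passed the test in 2 and 4 of the 8 fits that left out 1 array.

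Among genes lower in both hypertensive strains, Endog, which encodes mitochondrial endonuclease G, was at -1.80, -2.06, -1.81 and -2.18 in SHRSP, against -0.39, -0.075, -0.18 and -0.43 in 2K1C. The difference was -1.70 ± 0.20, or 3.24-fold (adjusted p = 5.28e-05), and the groups did not overlap. Ptgr1, a reductase that inactivates prostaglandins and leukotriene B4, differed by -1.92 ± 0.23 (adjusted p = 6.75e-05). Med17, a subunit of the Mediator complex of RNA polymerase II, was at -2.56, -2.64, -2.78 and -2.83 in SHRSP, against -0.91, -1.0, -0.80 and -0.62 in 2K1C, with a difference of -1.87 ± 0.13 (adjusted p = 1.05e-07). Hsd17b13, an enzyme of lipid droplets, differed by -1.64 ± 0.28 and the channel gene Pkd2l1 by -1.58 ± 0.30, with adjusted p-values of 0.00345 and 0.00935. The differences of these 5 genes between SHRSP and SHR ran from -0.48 to 0.15, all with an adjusted p of 1.

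The largest fitted difference was that of RGD1311103, annotated as an oocyte-expressed protein homolog and named here after its value was seen. Its order against other genes at background in 1 group is not established, since their folds are lower bounds. Its levels were 0.44, 0.18, 0.31 and -0.042 in SHRSP, against -8.11, -8.08, -8.15 and -8.15 in 2K1C, at least 71.1-fold higher (adjusted p = 9.16e-11). A separate probe, designed for an uncharacterised Ensembl transcript 0.125 kb away on the same strand of chromosome 8, was at least 23-fold higher (adjusted p = 3.42e-10). Both were at background on every WKY array and passed the filter on dim probes only through the hypertensive strains. Their calls are therefore descriptions and no independent support. RGD1309362, annotated as similar to an interferon-inducible GTPase, was at 2.85, 2.61, 2.81 and 2.87 in SHRSP, against -1.68, -1.22, -0.97 and 0.42 in 2K1C, 12.5-fold higher (adjusted p = 4.53e-06). Tlr3, the endosomal receptor for double-stranded RNA, was at -0.10, -0.22, -0.24 and -0.32 in SHRSP, against -1.71, -1.64, -1.61 and -2.17 in 2K1C, higher by 1.56 ± 0.15 (adjusted p = 4.53e-06). Tor1b, a torsin ATPase of the nuclear envelope and endoplasmic reticulum, was higher by 1.5 ± 0.14 and Lig4, the DNA ligase of non-homologous end joining, by 1.29 ± 0.16, with adjusted p-values of 2.38e-06 and 0.000111. These 3 and RGD1309362 were also named after their values were seen.

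A smaller set was set apart by the 2K1C arrays. Psma8, a proteasome alpha subunit known from testis, was at -4.07, -3.89, -4.31 and -4.46 in SHRSP, against -8.04, -7.45, -6.50 and -7.43 in 2K1C, not well above background on any 2K1C array and at least 3.36-fold brighter in SHRSP arteries (adjusted p = 9.85e-05). The Psma8 order against untreated WKY and 1K1C rests partly on dim values, since 1 array of each was not well above background either. Psma8 thus passed the filter on dim probes only through the hypertensive strains, in which it was bright, so its call is a description. Untreated WKY lay between SHRSP and 2K1C at -5.50 ± 0.78 (SD), and the difference of 2K1C from untreated WKY did not pass the test (adjusted p = 0.0901). B3galt1, a galactosyltransferase, called in 2 of the 8 fits that left out 1 array, was higher in SHRSP by 2.30 ± 0.49 (adjusted p = 0.0226), with 2 of 4 2K1C arrays well above background. A further 4 genes were named after their values were seen. Pecr, a peroxisomal enoyl-CoA reductase, was higher in SHRSP by 1.31 ± 0.24 (adjusted p = 0.00724) and Kctd6, an adaptor of a ubiquitin ligase, by 0.77 ± 0.14 (adjusted p = 0.00561). The phosphatase gene Dusp18 differed by -0.68 ± 0.15 (adjusted p = 0.0248) and Vopp1 by -1.26 ± 0.21 (adjusted p = 0.00264), both lower in SHRSP. Dusp18 was called in 2 of the 8 fits that left out 1 array. Vopp1 also separated SHRSP and SHR from all WKY arrays, and its second probe differed by -0.36 ± 0.26 (limma adjusted p = 0.712). None of these 6 genes passed the test between 2K1C and untreated WKY, where adjusted p-values ran from 0.0901 to 0.151. No other array of the series lay on the slide of the 2K1C arrays.

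Called genes outside these patterns included Alb, the gene of albumin, at 2.79, 3.01, 3.36 and 2.24 in SHRSP, against -0.69, 1.83, -0.027 and 0.049 in 2K1C, higher by 2.56 ± 0.54 (adjusted p = 0.0199). It passed the test in 2 of the 8 fits that left out 1 array, with adjusted p-values up to 0.0864. Kif12, a kinesin not well above background on any 2K1C array, was brighter in SHRSP, by at least 5.63-fold (adjusted p = 0.0136). Dpt, which encodes the matrix protein dermatopontin of adventitial fibroblasts, was at 3.09, 3.43, 2.29 and 2.48 in SHRSP, against 0.96, 1.62, 1.32 and 0.98 in 2K1C, higher by 1.60 ± 0.24 (adjusted p = 0.000788). It was the 1 called gene of 8 fibroblast markers, whose median was 0.35, against 1.15% of all genes called. Gstt3 and Gstt1, neighbouring theta-class glutathione transferases, were higher by 1.46 ± 0.27 and 1.30 ± 0.28 (adjusted p = 0.00786 and 0.0243). Gstt3 separated both hypertensive strains from all WKY arrays, Gstt1 passed the test in 3 of the 8 fits that left out 1 array, and the other 15 glutathione transferases were not called. On the lower side, Tctex1d4, a dynein light chain family gene not well above background on any SHRSP array, was at least 2.15-fold lower (adjusted p = 0.00298), and Ripply3, a transcriptional corepressor well above background on 1 of 4 SHRSP arrays, differed by -1.62 ± 0.32 (adjusted p = 0.0133). Ptprj, the receptor tyrosine phosphatase CD148, was at 0.18, 0.053, 0.65 and 0.019 in SHRSP, against 2.21, 1.80, 1.69 and 1.48 in 2K1C (difference -1.57 ± 0.31, adjusted p = 0.0119), but a second probe differed by 0.38 ± 0.45 (adjusted p = 0.849).

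Across the 45 gene lists, which cover vascular, matrix, inflammatory and metabolic functions and markers of neighbouring tissue, 582 genes were measured and 10 were called, against 1.15% of all genes. For contractile smooth muscle 0 of 15 genes were called and 0 had an unadjusted p under 0.05, with a median of -0.15. For extracellular matrix 0 of 30 were called and 2 had an unadjusted p under 0.05, with a median of 0.049; Eln, the gene of elastin, differed by -0.029 ± 0.85 (interval -1.81 to 1.75, adjusted p = 0.996) and Fn1, fibronectin, by 0.69 ± 0.26 (adjusted p = 0.359). None of 12 potassium channel, 22 calcium handling, 8 adrenergic, 4 endothelin or 12 nitric oxide and natriuretic genes was called, with medians from -0.18 to 0.048. At an unadjusted p under 0.05 there were 0, 0, 0, 0 and 1 of them in the same order, against 1582 of all 16401 genes. In the eicosanoid list Ephx2 was the 1 called of 15, and Ptgs2, the inducible cyclooxygenase, differed by 0.92 ± 0.63 without passing the test. These counts cover list members only. Ptgr1 (-1.92) and the matrix protein gene Dpt (1.60), both called and given above, are not on the eicosanoid and matrix lists. Without scaling between arrays, where the median of all genes was 0.38, the medians of the smooth muscle, RGS and Notch lists were 0.25, 0.23 and 0.27, opposite in sign to those given here. Signs also changed with single arrays. Leaving out 2K1C array 1 gave 0.15 for smooth muscle and 0.17 for Notch. Leaving out 2K1C array 4 gave 0.0019 for RGS and -0.20 for extracellular matrix.

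Several lists leaned one way without a called gene. All 16 interferon-stimulated genes had differences above 0, with a median of 0.49 against -0.010 for all genes, and 5 had an unadjusted p under 0.05. Their mean level was 0.86, 0.56, 0.93 and 0.25 on the SHRSP arrays, against -0.090, 0.058, 0.14 and 0.62 on the 2K1C arrays, so SHRSP array 4 lay below 2K1C array 4 and the groups overlap. Isg15 differed by 0.76 ± 0.35 (adjusted p = 0.497) and Usp18, which removes Isg15 from proteins, by 0.79 ± 0.43 (adjusted p = 0.589). Of 20 chaperone genes 19 were above 0, with a median of 0.24; the heat shock gene Hspa1b was at 1.55, 3.05, 4.42 and 2.84 in SHRSP, against 1.42, 1.57, 1.60 and -0.28 in 2K1C (adjusted p = 0.494). Of 23 immediate early genes 16 were above 0, with Ccn1, a matricellular protein gene, at 3.66, 4.16, 4.41 and 2.59 in SHRSP, against 3.42, 1.43, 2.17 and 1.04 in 2K1C (difference 1.69 ± 0.57, adjusted p = 0.26). At an unadjusted p under 0.05 there were 5 chaperone, 4 immediate early and 1 neuronal gene, against 1582 of all 16401 genes. Of 14 neuronal genes 1 was above 0, with a median of -0.76, but without 2K1C array 1, which carried the high levels given above, the median was 0.14.

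White adipocyte genes were above 0 in 11 of 11, with a median of 0.50, and fatty acid oxidation genes in 18 of 20, with a median of 0.29. Cholesterol synthesis genes were above 0 in 14 of 17, with a median of 0.34; Insig1, a sterol-sensing regulator, differed by 1.15 ± 0.53 (adjusted p = 0.496). Pancreas genes were above 0 in 10 of 10, with a median of 1.53, but SHRSP array 4 lay below all 2K1C arrays. Of 15 complement genes 14 were above 0, and C4bpa, a complement inhibitor, was the exception at -2.69 ± 0.67 (adjusted p = 0.0603). None of the 29 measured genes of the cell cycle list was called, with a median of 0.039 and no gene at an unadjusted p under 0.05. That list is not complete. Mcm7 (1.12, limma adjusted p = 0.0107) and Kif15 (1.19, limma adjusted p = 0.0276) lie outside it and were called higher in SHRSP. Both were named after their values were seen. At an unadjusted p under 0.05 there were 1 white adipocyte, 2 fatty acid oxidation, 4 cholesterol synthesis, 2 complement and 0 pancreas genes. Among all 16401 genes there were 1582, and the list counts were not tested against that share. Nr1d1, a circadian repressor, was at -4.17, -4.11, -4.15 and -4.93 in SHRSP, against -3.10, -3.21, -2.48 and -2.99 in 2K1C, a difference of -1.40 ± 0.44 (adjusted p = 0.208).

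**Figure D4:**
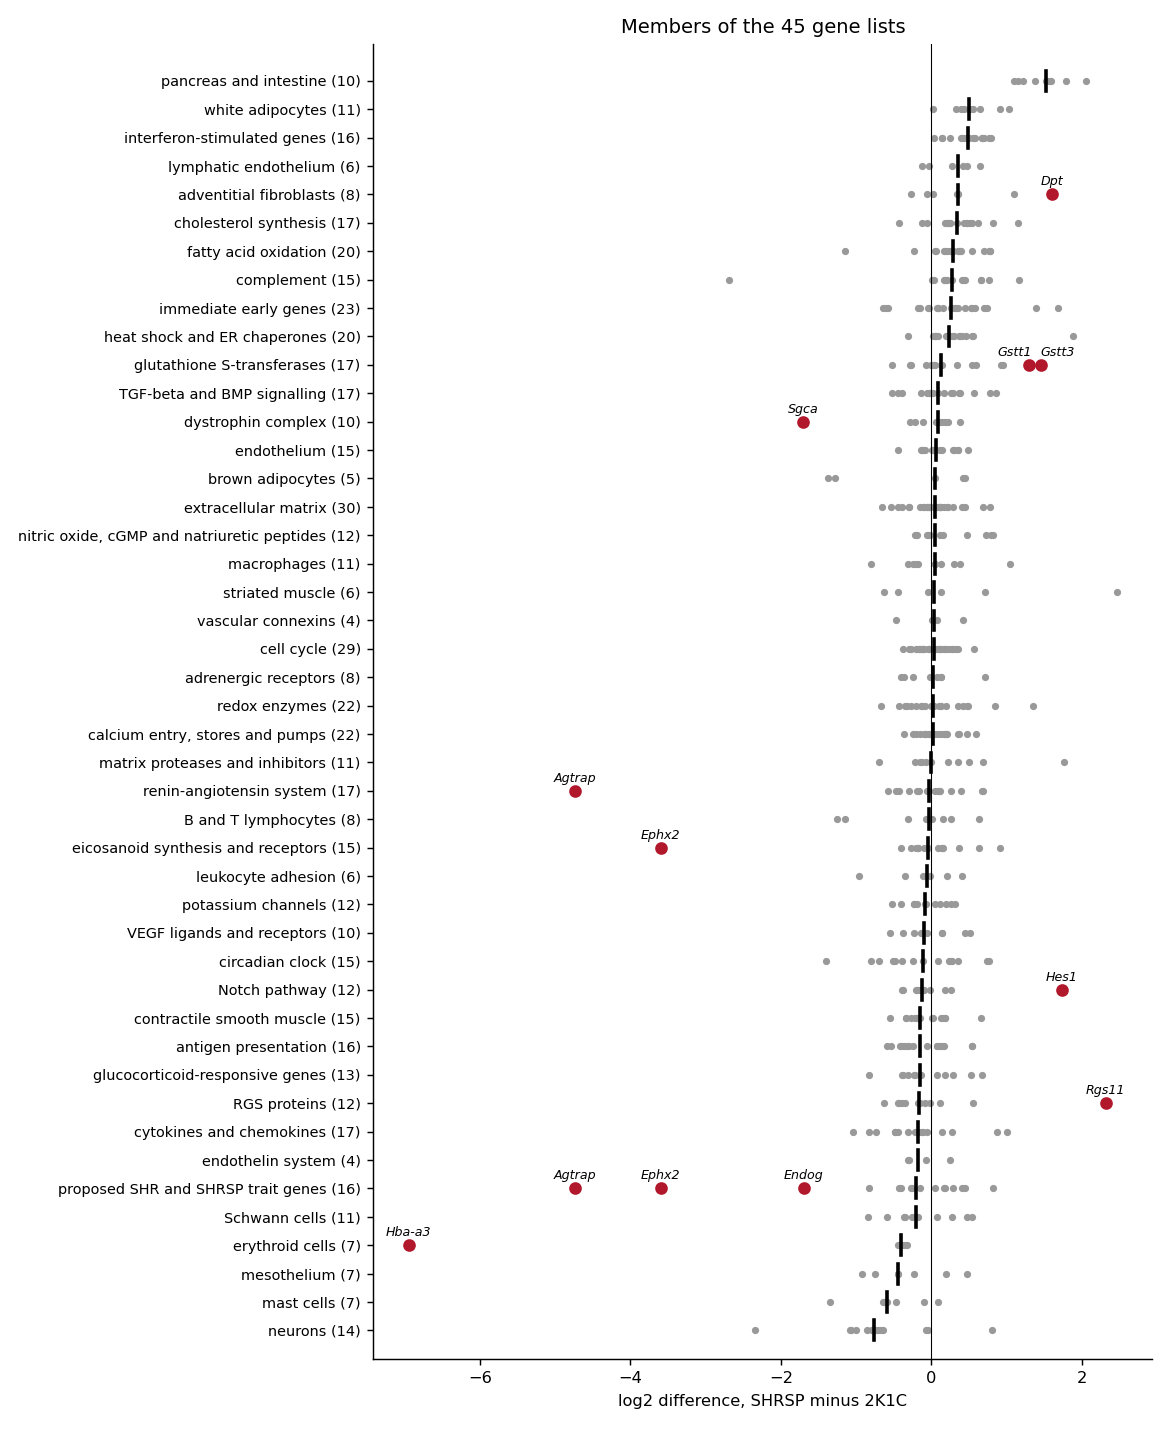
Log2 difference between SHRSP and 2K1C arteries for the measured members of 45 gene lists, with the number measured in brackets. Red points are called genes, grey points are not called, and the black bar is the list's median, which ran from -0.76 for neurons to 1.53 for pancreas and intestine.

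Genes proposed for traits of these strains were described too. Of 16 measured, 3 were called, all lower in SHRSP, namely Agtrap, Ephx2 and Endog, against 1.15% of all genes called and 0.549% called lower. This list was drawn up with knowledge of these strains and of earlier results of these arrays, so its count is not independent evidence. Vegfb, a growth factor gene of the vascular endothelial family, was at 1.18, 1.48, 1.17 and 0.71 in SHRSP, against 0.69, 0.86, 0.87 and 0.31 in 2K1C, a difference of 0.45 ± 0.35 that did not pass the test (adjusted p = 0.718), while SHR averaged -7.93, not well above background on any of its arrays. Cd36, the fatty acid transporter gene, differed by 0.29 ± 0.33 (interval -0.41 to 0.99), Stim1, a calcium sensor of the endoplasmic reticulum, by -0.15 ± 0.17 (interval -0.50 to 0.20), and Srxn1, sulfiredoxin, by -0.67 ± 0.26 (interval -1.22 to -0.11, adjusted p = 0.384).

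The called genes often lay near each other in the genome. On rn4, 169 called genes had a probe placed on a chromosome, and 62 of them (36.7%) had another called gene within 1 Mb, whereas 19.1% of the 15551 tested genes with a placed probe had a called gene other than themselves that near. For the 39 placed genes that set SHRSP apart from all other arrays, 17 (43.6%) had another of that set within 1 Mb, against 4.69% of tested genes. For the 73 that set both strains apart, 19 (26.0%) did, against 8.76%. For the 10 placed genes of the 2K1C pattern the count was 0, against 0.791%. These shares are descriptions, with no test, since neighbouring genes are not independent. They count as separate genes a pair of probes 0.125 kb apart on chromosome 8 and a pair 0.167 kb apart on chromosome 18. Each pair lies on the same strand, and whether it reads a single transcript was not tested. The 62 genes formed 25 groups of 2 to 7. Each span given below runs from one called gene to another, so at least 2 calls in it are fixed by how it was drawn.

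The largest group lay on chromosome 1 between positions 78216455 and 79540911, where 7 of 54 tested genes were called. They were Micb (-3.54), Pglyrp1 (-1.21), Rsph6a (-0.62), Opa3 (-0.81), Zfp108 (-1.30), Zfp61 (1.06) and the cDNA FQ212058 (4.40), in order along the chromosome and as log2 differences. Except for Rsph6a, which was called in 1 of the 8 fits that left out 1 array, all of them set SHRSP apart from the 16 other arrays. Pglyrp1, which encodes a peptidoglycan recognition protein of neutrophils, was at -5.13, -4.84, -4.97 and -4.66 in SHRSP, against -3.74, -3.67, -3.76 and -3.58 in 2K1C (adjusted p = 0.000277). FQ212058 was at -0.39, -0.45, -1.13 and -0.60 in SHRSP, against -4.96, -4.97, -4.49 and -5.75 in 2K1C, 21.2-fold higher (adjusted p = 2.3e-08), while its neighbour Zfp61 was 2.09-fold higher and Zfp108 at least 1.66-fold lower. Directions within the stretch thus differed from gene to gene.

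On chromosome 10 there were 3 groups of the SHRSP pattern. Eef2kmt (0.93 ± 0.17), a lysine methyltransferase of elongation factor 2, and Hmox2 (-0.65 ± 0.12) lay between 10459940 and 10914271, with 2 of 18 tested genes called. An uncharacterised Ensembl transcript (at least 4.35-fold lower, adjusted p = 3.92e-06), Rgs11 and Hba-a3 lay between 15051356 and 15559520, with 3 of 29 called. Sgca and Samd14 lay 62.3 kb apart, between 83647348 and 83709746, and were 2 of the 4 tested genes in that span. On chromosome 14, between 18992870 and 19127039, all 3 tested genes were called, as were 3 of the 30 within 2000 kb of Afp. LOC360919, annotated as similar to alpha-fetoprotein, was at least 7.36-fold lower (adjusted p = 5.28e-05), while Afp and Alb, members of the same gene family, were higher. On chromosome 3, Endog was lower and Tor1b and Exosc2, a subunit of the RNA exosome, (0.45 ± 0.11, called in 1 of the 8 fits that left out 1 array) were higher between 9187223 and 10797067, with 3 of 31 called. Gstt3 and Gstt1 lay 9.98 kb apart on chromosome 20. All genes of these groups outside the naming rule were named after their values were seen.

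**Figure D5:**
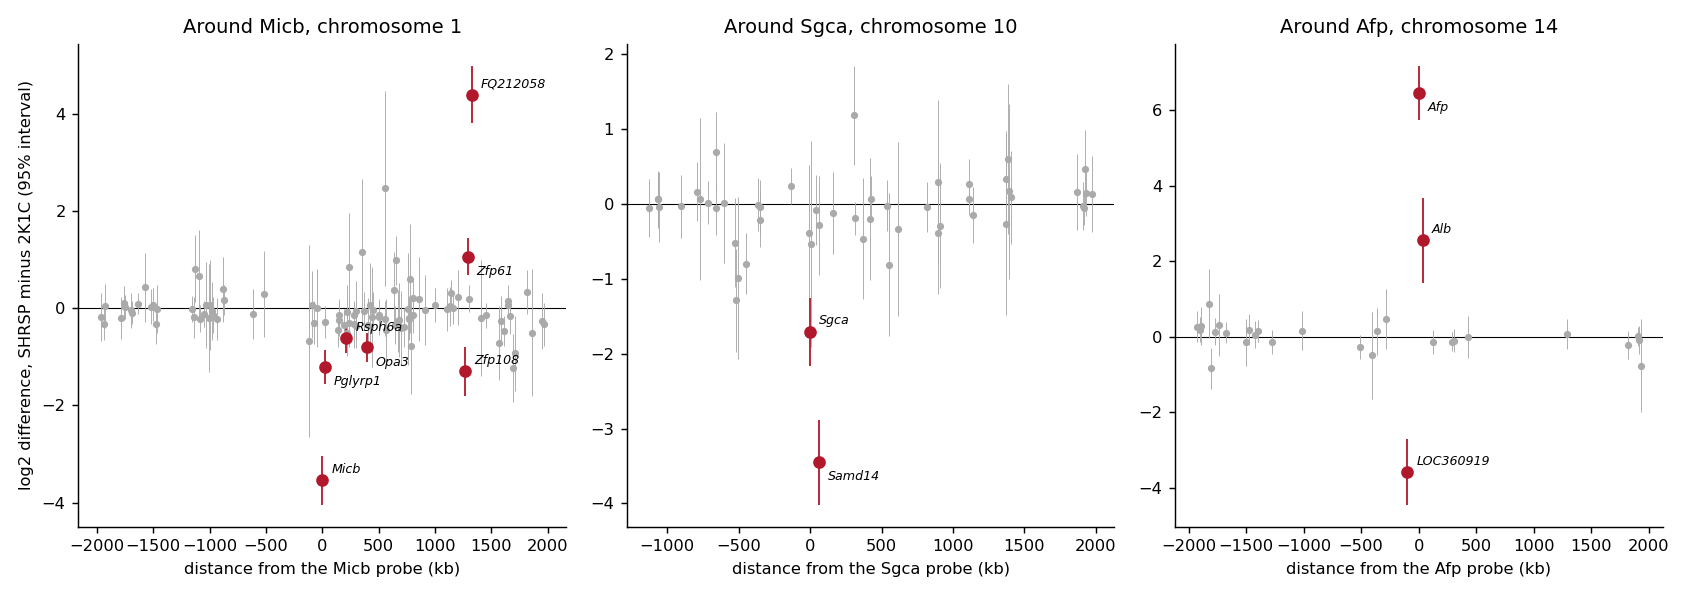
Log2 difference between SHRSP and 2K1C arteries with its 95% interval, for tested genes within 2000 kb of the Micb, Sgca and Afp probes, against distance in kb. Called genes are red and named, 7 of 102 around Micb, 2 of 52 around Sgca and 3 of 30 around Afp, and most of their neighbours in grey lie near 0.

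Other probes of the same gene tested some of the calls. Of the 189 called genes, 163 had 1 detected probe only. For the remaining 26, the other detected probes all had the same sign for 21 genes and at least 1 had the opposite sign for 5. A second probe with the same sign was itself called for 7 genes, against 1.05% of all such second probes. Both LOC360919 probes were called lower (adjusted p = 5.28e-05 and 3.58e-06), and Tlr3 was higher at its second probe by 1.07 ± 0.16, against 1.56 ± 0.15 at the first. Zfp14, a zinc finger gene, differed in sign between its probes. Its main probe, with -1.66, -1.89, -1.91 and -2.05 in SHRSP, against -1.14, -1.38, -1.06 and -1.17 in 2K1C, differed by -0.69 ± 0.16 (adjusted p = 0.0478), and its second by 1.10 ± 0.17 (adjusted p = 0.000948). Both sequences are shown above. The Zfp14 call was lost in each of the 8 fits that left out 1 array. Tfpi, the tissue factor pathway inhibitor gene, was higher by 1.07 ± 0.19 (adjusted p = 0.00428) at its main probe and differed by -0.11 ± 0.29 at its second (adjusted p = 0.95). Agtrap, Ephx2, Hba-a3, Afp, Sgca, Samd14 and Endog had no second detected probe.

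A close pair of probes on chromosome 18 also moved in opposite directions, and was named after its values were seen. The cDNA FQ219182, at 25322038 to 25322097, was at 1.51, 1.56, 1.57 and 1.69 in SHRSP, against 0.38, 0.43, 0.79 and 1.03 in 2K1C, higher by 0.93 ± 0.13 (adjusted p = 0.000487). The transcript TC592821, annotated as similar to mouse Wdr36, lies at 25322205 to 25322264 on the same strand. It was at -4.53, -4.53, -4.19 and -4.41 in SHRSP, against -2.90, -2.60, -3.06 and -2.37 in 2K1C, a difference of -1.68 ± 0.15 (adjusted p = 1.43e-06), and its second probe differed by -1.33 ± 0.13. In both cases the SHRSP arrays lay outside the range of all 16 others.

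The genes whose levels ran most like Agtrap over the 20 arrays were Hba-a3, Micb and an unnamed transcript on chromosome 2, with Pearson correlations of 0.976, 0.965 and 0.962. For Ephx2 they were Hba-a3, Zfp14 and the same transcript, at 0.943, 0.926 and 0.921. All of these genes set SHRSP apart from the other 16 arrays, and the 20 points fall into those 2 clusters, so the correlations describe that split and no more. The signal of the unnamed transcript was well above background on none of the SHRSP arrays and was at least 1.56-fold lower there than in 2K1C (adjusted p = 1.18e-07).

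Most of the large calls did not rest on 1 array. Of the 30 genes with the largest differences by the naming rule, 23 kept an adjusted p under 0.05 in each of the 8 fits that left out 1 SHRSP or 2K1C array, and of all 189 called genes 106 did. Those of the 30 that did not were Kif12, Alb, B3galt1, Nxnl2, Agmo, Ripply3 and Ptprj.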

How the data were processed

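Cy3 cRNA of rat mesenteric artery was hybridised to 20 1-colour Agilent arrays. The deposited values are spot intensities after background subtraction, made with Agilent Feature Extraction (version 10.7.3.1, per the submitters' processing notes), and the authors' deposited value table held the same processed signals. Levels are the log2 intensity minus each array's 75th percentile over the 58717 non-control spots, so a difference is a log2 ratio of scaled intensities. Outlier spots were dropped, spots of a probe averaged, probes kept if every array of 1 or more groups was well above background, and the brightest probe taken per gene, giving 16401 genes, of which 4 had a missing value on an array. Of 30367 probes, 60.4% matched a RefSeq symbol (GRCr8 table), and 2935 names were updated. limma 3.58.1 in R 4.3.3 fitted all 5 groups, with Benjamini-Hochberg adjustment over all genes and a threshold of 0.05, and ± is the SE of a difference unless SD is given. The number of arrays limits the precision, and a p-value measures the spread between these arrays only.

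The members and lists were chosen with earlier results of these data known. Named were the 15 largest called differences in each direction among genes that have a symbol, no overlap between SHRSP and 2K1C arrays and all 4 arrays of the brighter one well above background, up to 4 called or else 2 members of each list, genes of interest by name, and genes whose level ran most like Agtrap or Ephx2. Alternatives changed the scaling, background, filters, probe choice, variance model and arrays. The fit was tested on simulated data. Some genes that the naming rule covers are not reported here.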

Additional observations from a re-analysis of the deposited data

Results flagged for a closer look

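Of 410 groups of 4 arrays examined, 23 held a lowest or highest array whose gap to the nearest other array exceeded Dixon's 95% limit as a share of the group's range, and chance gives about 1 in 20 such groups. Values are log2 levels, with the nearest other array after each.

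Array 4 of 2K1C accounted for 10 of the 23. It was lowest for Rgs11 (-5.51, next -4.20), Atf3, a stress-induced transcription factor (0.37, next 2.09), Hspa1b (-0.28, next 1.42), Ckm, muscle creatine kinase (-4.51, next -3.23), Nrp2, a semaphorin and VEGF co-receptor (-4.96, next -4.12), Agtr1b (-4.57, next -2.57) and Tlr3 (-2.17, next -1.71). It was also lowest for the mean of endothelial genes (-0.24, next 0.31) and of dystrophin complex genes (0.35, next 1.16), and highest for the lymphatic chemokine Ccl21 (4.80, next 2.57).

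Array 1 of 2K1C was highest for the mean of neuronal genes (0.88, next -2.25), for Slc6a2, the noradrenaline transporter (2.99, next -2.75), and for Tor1b (-3.18, next -3.78), and lowest for Acot5, an acyl-CoA thioesterase (-6.44, next -5.10). Array 3 of 2K1C was highest for Cat, catalase (-0.84, next -1.32).

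Among SHRSP arrays, array 4 was highest for the mean of leukocyte adhesion genes (0.46, next -0.19), and lowest for Pip (-4.74, next -4.26), Col4a2, a basement membrane collagen (0.15, next 0.74), and Nr1d1 (-4.93, next -4.17). Array 3 was lowest for Gatm (-4.47, next -4.04) and highest for Lig4 (-1.37, next -1.92) and for the mean of potassium channel genes (-0.71, next -0.94). Array 2 was highest for Agtr1a (0.24, next -0.21).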

How the results depend on the processing

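The count of 189 called genes stayed within 1.5 times under 10 of the 12 alternatives that kept all arrays. Unscaled deposited values gave 290 (258 higher, 32 lower, so 89.0% higher, against 52.4%), with the median of all genes at 0.38, and 131 of the 189 genes were among them. Array weights gave 668 (362 higher, 306 lower), 188 of the 189 included. Keeping only probes well above background on all 8 arrays gave 127 called, with 54 lower. Normexp background correction gave 146, and 136 of these were among the 189. Leaving out 1 array gave 123 to 190 called genes, 64 to 100 higher and 59 to 94 lower, and the lowest counts came without SHRSP array 1 (124, with 65 higher and 59 lower) or SHRSP array 2 (123, with 64 and 59). The replicate block gave 194, of which 166 were among the 189. After each gene's group mean was subtracted, correlations of same-numbered SHRSP and 2K1C arrays were 0.29, -0.040, 0.21 and 0.64. The numbers were not taken as pairs in the main fit. Zfp14 changed direction when its probes were averaged (0.20, adjusted p = 0.733), as its probes differ in sign. Of 78 called genes that are named, 41 kept direction and call in all 20 alternatives. List medians changed sign for up to 17 of 45 lists (unscaled values) and for 16 without 2K1C array 4. The causes of the other changes were not tested. Slide and group coincide for 2K1C, so no fit with slide as a term separates them, and low levels are limited by signal over background.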
